A study of Mus musculus with 16 samples.

Results

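Interferon-stimulated genes were followed across genotype and culture in CD4 T cells of mice. The genotypes differed in Ezh2, which encodes the methyltransferase of Polycomb repressive complex 2 and sets trimethylation on lysine 27 of histone H3 (H3K27me3). The set was a list of 43 gene symbols, matched by name, and the list was drawn up with earlier results of these data known. It was kept as 33 targets usually assigned to type I interferon and 10 guanylate-binding protein and immunity-related GTPase genes (Gbp and Irg genes), which interferon gamma induces strongly. All 43 were found among the 23420 genes of the RNA tables and among the 22269 gene intervals of the H3K27me3 tables.

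Control cells came from mice with both Ezh2 alleles floxed and no Cre (Ezh2 fl/fl). Ezh2-deleted cells came from Ezh2 fl/fl.CD4Cre mice, in which Cre is driven by Cd4 and so acts in the whole T cell lineage from the stage at which thymocytes express CD4. The floxed alleles were thus shared by every group. Flow-sorted naive CD4 cells were stimulated with anti-CD3 at 5 ug/ml and anti-CD28 at 1 ug/ml. Th0 cultures, a neutral activation condition, had 50 U of IL-2. Induced regulatory T cell (iTreg) cultures had IL-2 at 200 U/ml and TGF-beta1 at 5 ng/ml. No group received interferon according to the labels. Titles put the iTreg libraries at day 5 and the Th0 libraries at day 4, whereas the protocol puts every harvest at day 4, so a difference between cultures may include 1 day of culture. RNA was sequenced from 3 libraries for each genotype and culture, and H3K27me3 ChIP-seq from 2 libraries for each genotype in Th0 cells only. A control library is called by the number in its title and a deleted library as its title writes it (Ezh2KO.150).

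Type I interferon signals through IFNAR1 and IFNAR2 to the kinases JAK1 and TYK2. A complex that contains STAT2 and IRF9 then binds the interferon-stimulated response element (ISRE) and switches on antiviral genes such as Ifit1, Oas1a, Mx1 and Isg15. Interferon gamma signals through IFNGR1 and IFNGR2 to genes with a gamma-activated site (GAS) and induces Irf1, itself an ISRE-binding factor, and many Gbp and Irg genes. The GTPases encoded by the latter attack the vacuoles of intracellular microbes. The lists overlap in their inducers, since many members respond to both cytokines.

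Promoter windows from 250 bases before to 50 bases after the transcription start, from RefSeq on GRCm38.p6 (the assembly also called mm10), were matched for 32 of the 43 members. An ISRE core, spelled GAAA, any 2 bases, GAAA, on either strand, was found in 18 of these (56.2%), against 3.99% of 27025 genes with a window. It was found in 11 of 24 type I targets (45.8%) and in 7 of 8 Gbp and Irg genes (87.5%). A GAS core spelled TTCNNNGAA, on either strand, was found in 9 of the 32 members (28.1%) against 9.55% of all genes. In Bst2 a GAS match overlapped an ISRE match. The stretches shown here, each on the gene's own strand, are from members whose RNA values are given later, and from Gbp3 and Irgm2, which had the core and no genotype call in RNA. ISRE cores are in capitals, and adjoining or overlapping cores form 1 longer run.
Ifit1, chr19:34640765-34640833, plus strand: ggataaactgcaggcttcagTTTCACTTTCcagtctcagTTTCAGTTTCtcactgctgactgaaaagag
Oas1a, chr5:120907526-120907565, minus strand: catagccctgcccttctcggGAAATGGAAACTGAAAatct
Isg15, chr4:156200855-156200916, minus strand: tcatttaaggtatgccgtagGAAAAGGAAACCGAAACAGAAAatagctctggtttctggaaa
Gbp3, chr3:142559979-142560034, plus strand: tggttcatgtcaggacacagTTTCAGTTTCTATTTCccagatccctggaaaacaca
Gbp5, chr3:142496749-142496798, plus strand: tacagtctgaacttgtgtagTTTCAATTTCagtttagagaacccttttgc
Gbp7, chr3:142530263-142530312, plus strand: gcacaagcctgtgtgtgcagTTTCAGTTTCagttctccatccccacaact
Igtp, chr11:58199502-58199551, plus strand: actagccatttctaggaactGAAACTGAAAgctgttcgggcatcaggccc
Irgm2, chr11:58214893-58214942, plus strand: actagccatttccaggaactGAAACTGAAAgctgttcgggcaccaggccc

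The Isg15 window held 3 overlapping cores between 78 and 57 bases before the start, the Oas1a window 2 overlapping cores within 20 bases of the start, and the Ifit1 window 2 separate cores. The Igtp and Irgm2 stretches were identical at 48 of 50 bases. Among the members shown, Igtp, Irgm2, Gbp5, Gbp7 and Oas1a also had a GAS core in the window, which in Igtp and Irgm2 began just upstream of the ISRE core. A match is a spelling in a window and not a measured binding site.

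RNA libraries held 21910114 to 28443427 counted reads and H3K27me3 libraries 11124172 to 15103496, so a member with no reads in a library could still have up to 3 counts there, a limit that covers counting error only. Ezh2 was lower in each deleted library than in each control library of its culture (Th0 log2 change -0.99, adjusted p = 0.0618; iTreg -1.18, adjusted p = 0.0235, and 0.0781 or 0.0802 without iTreg control 154 or 155). Counts cover the whole gene, so Ezh2 reads from outside the deleted part are included. Cd4 was present in every library (6368 to 15655 counts). Foxp3, the defining factor of regulatory T cells, had 22309 to 24296 counts in control iTreg libraries and 1428 to 2201 in deleted ones. Among the iTreg libraries, Ezh2KO.165 and control 177 stood apart from their group mates over all genes, with chi-square divided by its degrees of freedom at 442 and 470.5 for the pairs with Ezh2KO.165 and of 173 and 141 for the pairs with 177, against 5.26 and 9.71 for the remaining pairs. Both libraries numbered Ezh2KO.165 also had the X-inactivation RNA Xist at 27248 and 25036 counts, against 2 to 21 elsewhere, and the Y-linked gene Ddx3y at 10 and 4 counts, against 2114 to 4635. For many of the results that rest on these libraries, values without them are also given. P-values rest on the spread among libraries called biological replicates. For RNA, the spread of each gene was estimated over all 12 libraries together. Pairs of Th0 libraries were at 3.84 to 17.2 on the same chi-square scale, so an RNA p-value of either culture mixes unlike spreads.

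In iTreg cells without Ezh2, interferon-stimulated genes were broadly higher. Of the 33 type I targets, 20 rose and 0 fell, and of the 10 Gbp and Irg genes, 8 rose and 0 fell, where 9.45% of all 12845 tested genes rose and 7.26% fell (edgeR quasi-likelihood test, Benjamini-Hochberg adjusted p under 0.05 over all genes). No member fell at an unadjusted p under 0.05 or in DESeq2 either. The median log2 change was 1.65 for type I targets and 1.11 for Gbp and Irg genes, against 0.01 over all genes. All 3 deleted libraries lay above all 3 control libraries for 24 of 33 type I targets and 8 of 10 Gbp and Irg genes, against 12.7% of all genes. They lay all below for 0 members, against 12.8% of all genes. In bulk RNA, more cells with a transcript and more of it per cell cannot be told apart.

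**Figure D1:**
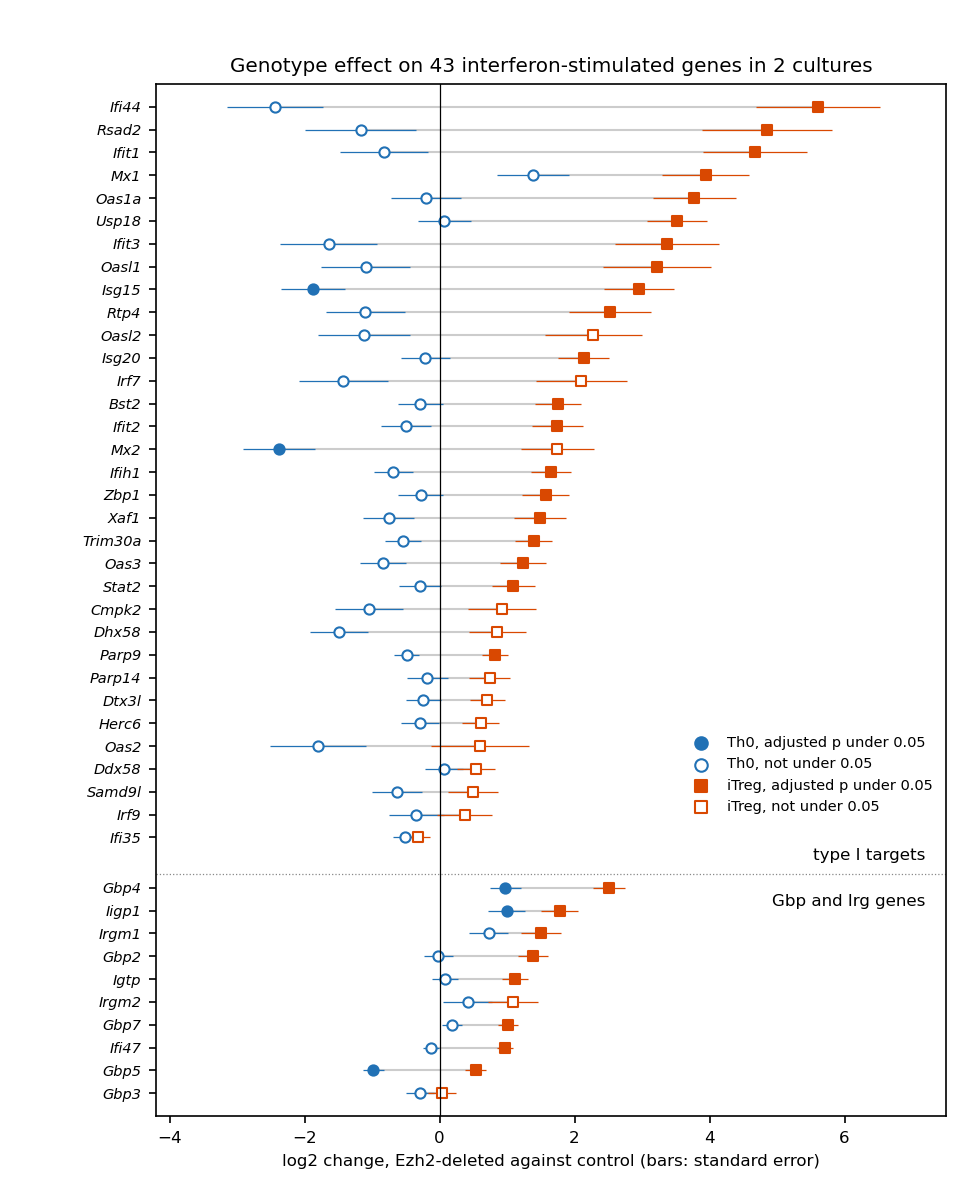
Log2 change of each of the 43 genes in Ezh2-deleted against control cells, in Th0 (circles) and in iTreg (squares), with standard errors as bars, type I targets above the dotted line and Gbp and Irg genes below it. Filled symbols passed an adjusted p of 0.05. Of the type I targets, 32 of 33 iTreg values are positive and 30 of 33 Th0 values are negative, while the 10 Gbp and Irg genes lie on both sides of 0 in Th0.

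Values per library are given as CPM (a gene's counts scaled to the counted reads of its library), in the order 154, 155 and 177 for control and Ezh2KO.150, Ezh2KO.153 and Ezh2KO.165 for deleted iTreg cells. Ifit1 (chromosome 19, 34640871 to 34650009), which binds viral RNA lacking host cap marks, had 1.64, 0.653 and 1.29 CPM in control and 12.3, 14.3 and 64.9 CPM in deleted cells. Its log2 change was 4.67 (SE 0.77, adjusted p = 0.00252), and the groups did not overlap, with Ezh2KO.165 far above its group mates. Without that library the change was 3.47. Ifit2 and Ifit3, of the same family, rose by 1.74 and 3.38 on the log2 scale, and by 1.38 and 2.56 without Ezh2KO.165. The Ifit3 call was lost without iTreg control 154 or 155 (adjusted p = 0.0589 to 0.0604).

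Oas1a (chromosome 5, 120896256 to 120907521) makes 2'-5' oligoadenylate, which activates an RNA-cleaving enzyme. It had 0.609, 0.408 and 0.282 CPM in control and 4.83, 4.03 and 9.13 CPM in deleted iTreg cells, a log2 change of 3.77 (SE 0.61, adjusted p = 0.00228). All deleted libraries were above all control libraries for this gene, which has near-identical Oas1 copies, so the assignment of its reads is uncertain. Of the 5 OAS genes listed, Oas3 (1.24) and Oasl1 (3.22) also rose, while Oasl2 (2.28, adjusted p = 0.0581) and Oas2 (0.61, adjusted p = 0.690) did not pass. The Oasl1 call rested on few reads, at 7, 0 and 2 counts in control libraries, and was lost without iTreg control 155 or 177 (0.0538 to 0.0632). That of Oas3 was lost in 6 of 12 fits that left out 1 library (iTreg Ezh2KO.150 or Ezh2KO.153, iTreg control 155 or 177, Th0 control 177 or Th0 Ezh2KO.174; adjusted p = 0.0524 to 0.128).

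Mx1 (chromosome 16, 97447035 to 97462907), a GTPase that traps viral ribonucleoproteins, had 1.22, 0.408 and 0.322 CPM in control and 9.58, 10.8 and 9.90 CPM in deleted iTreg cells. Here library Ezh2KO.165 did not differ from its group mates, and the log2 change was 3.94 (SE 0.64, adjusted p = 0.00227). Mx2 was also higher in every deleted library (1.92 to 3.30 against 0.571 to 0.876 CPM), but its log2 change of 1.74 did not pass (adjusted p = 0.0537). Ifi44 (chromosome 3, 151730922 to 151749947), an interferon-induced cytoplasmic protein, had the highest log2 change of the set at 5.60 (SE 0.92, adjusted p = 0.00242). Its control libraries held 6, 4 and 1 counts and its deleted libraries 129, 102 and 265, so the size of this change rests on few control reads. Rsad2, the antiviral enzyme viperin, rose by 4.85 (adjusted p = 0.00686) with 2.73, 2.74 and 14.4 CPM in deleted cells. Its change was 3.58 without Ezh2KO.165.

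ISG15 is a ubiquitin-like protein, and USP18 both removes it from its targets and blocks signalling at IFNAR2. Usp18 (chromosome 6, 121245906 to 121270916) had 2.28, 1.18 and 2.70 CPM in control and 21.2, 19.7 and 29.8 CPM in deleted iTreg cells, and its log2 change of 3.52 (SE 0.45) had the smallest adjusted p of the type I targets (0.000647). Isg15 (chromosome 4, 156199424 to 156200818) had 1.49, 1.35 and 0.685 CPM in control and 7.89, 8.23 and 11.3 CPM in deleted cells, a log2 change of 2.96 (SE 0.51, adjusted p = 0.00339). Neither gene overlapped between genotypes. Herc6, the ligase that joins Isg15 to proteins in mice, had a log2 change of 0.61 and did not pass (adjusted p = 0.189), with a change of 0.35 without iTreg Ezh2KO.165. Isg20 (chromosome 7, 78913424 to 78920362), an exonuclease that degrades viral RNA, had 30.2, 22.8 and 8.02 CPM in control and 97.9, 95.7 and 74.0 CPM in deleted cells, a log2 change of 2.14 (SE 0.38, adjusted p = 0.00356). Its lowest values in both genotypes were in libraries 177 and Ezh2KO.165.

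Among the sensors of viral nucleic acid, Ifih1 (chromosome 2, 62595798 to 62646255), which encodes MDA5, had 10.9, 8.57 and 8.22 CPM in control and 23.5, 23.1 and 40.3 CPM in deleted iTreg cells. The groups did not overlap (log2 change 1.65, SE 0.30, adjusted p = 0.00391). Zbp1, a sensor of Z-form nucleic acid, rose by 1.57 (adjusted p = 0.0111, and 0.0537 without iTreg control 155), with a change of 0.98 without Ezh2KO.165. Ddx58, which encodes RIG-I, had a log2 change of 0.54 (adjusted p = 0.259) and its relative Dhx58 of 0.86 (adjusted p = 0.227), and neither passed. Without Ezh2KO.165 these were 0.18 and 0.32. Of the transcription factors of the pathway, Stat2 rose by 1.09 (adjusted p = 0.0421). That call was lost in 7 of 12 fits that left out 1 library (iTreg control 154, 155 or 177, Th0 control 177, or any 1 of the Ezh2-deleted Th0 libraries; 0.0635 to 0.134), and the change was 0.57 without iTreg Ezh2KO.165, where the call held. Irf7, which amplifies type I interferon production (2.1, adjusted p = 0.0616) and Irf9, the DNA-binding part of the ISRE-binding complex (0.37, adjusted p = 0.651) did not pass. Irf7 had 14.0, 9.38 and 24.9 CPM in control and 27.3, 30.8 and 149 CPM in deleted cells, and its change was 0.86 without Ezh2KO.165. Irf9 changed sign without iTreg Ezh2KO.165, where it had 307 CPM against 100.4 and 101 in its group mates (log2 change -0.38 without it).

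The Parp9 group, which includes a ligase complex that modifies histones, had smaller values. Parp9 rose by 0.82 (adjusted p = 0.0138, and 0.0591 without iTreg control 155), while its partner Dtx3l (0.71, adjusted p = 0.0977) and Parp14 (0.75, adjusted p = 0.136) did not pass. Without Ezh2KO.165 the latter were 0.27 and 0.22. Among the remaining type I targets, Bst2, the tetherin that holds budding virus on the membrane, rose by 1.76, and Trim30a, a restraint on innate signalling, by 1.4. Rtp4, a chaperone of membrane receptors (2.52), and Xaf1, a promoter of apoptosis (1.49), rose too, calls lost without iTreg control 155 or 177 (0.0558 to 0.0791) and without iTreg control 154 or 155 (0.0780 to 0.100). Without Ezh2KO.165 their changes were 1.60 and 0.94. Cmpk2, a mitochondrial nucleotide kinase (0.93, adjusted p = 0.281), and Samd9l, a cytoplasmic antiviral factor (0.50, adjusted p = 0.463) did not pass and had values of -0.04 and -0.03 without iTreg Ezh2KO.165. Ifi35 was the member with a value below 0, at 104, 98.3 and 59.6 CPM in control and 70.9, 70.1 and 67.0 CPM in deleted cells. These groups overlapped through control 177 (log2 change -0.33, adjusted p = 0.285), and without that library Ifi35 was lower (-0.54, adjusted p = 0.00489).

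Guanylate-binding proteins and immunity-related GTPases had 49.7 CPM or more in every library. Gbp4 (chromosome 5, 105115767 to 105139586) had 128, 95.8 and 156 CPM in control and 579, 591 and 984 CPM in deleted iTreg cells. Its log2 change of 2.51 (SE 0.24) had the smallest adjusted p of all 43 members (0.000154), and the groups did not overlap. Its interval is covered by those of the family members Gbp8 and Gbp9 over 99.8% of its length, so reads of near-identical copies may have been assigned among them. Gbp7 (chromosome 3, 142530338 to 142550083) had 192, 168 and 169 CPM in control and 394, 371 and 295 CPM in deleted cells, a log2 change of 1.01 (SE 0.15, adjusted p = 0.00125). Unlike most members, its lowest deleted value was in Ezh2KO.165. Gbp2 rose by 1.38, Gbp5 by 0.54 (adjusted p = 0.0418), and Gbp3 had a log2 change of 0.04 (adjusted p = 0.943). The Gbp5 call was lost in 10 of 12 fits that left out 1 library, all but those without iTreg Ezh2KO.153 or Ezh2KO.165 (0.0527 to 0.158).

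The immunity-related GTPases are split by their nucleotide-binding motif into effectors (GKS type: Iigp1, Ifi47) and regulators (GMS type: Irgm1, Irgm2, Igtp). Iigp1, which oligomerises on parasite vacuoles, had 225, 137 and 351 CPM in control and 762, 752 and 928 CPM in deleted iTreg cells, a log2 change of 1.78 (SE 0.27, adjusted p = 0.00170). Ifi47 (chromosome 11, 49076587 to 49096974) had 275, 253 and 307 CPM in control and 511, 505 and 615 CPM in deleted cells, a log2 change of 0.97 (SE 0.11, adjusted p = 0.000388). Neither overlapped between genotypes. Of the regulators, Irgm1 rose by 1.5 and Igtp by 1.12, while Irgm2 (1.09, adjusted p = 0.0726) did not pass and ranged from 265 to 745 CPM among the deleted libraries, with a change of 0.43 without Ezh2KO.165.

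**Figure D2:**
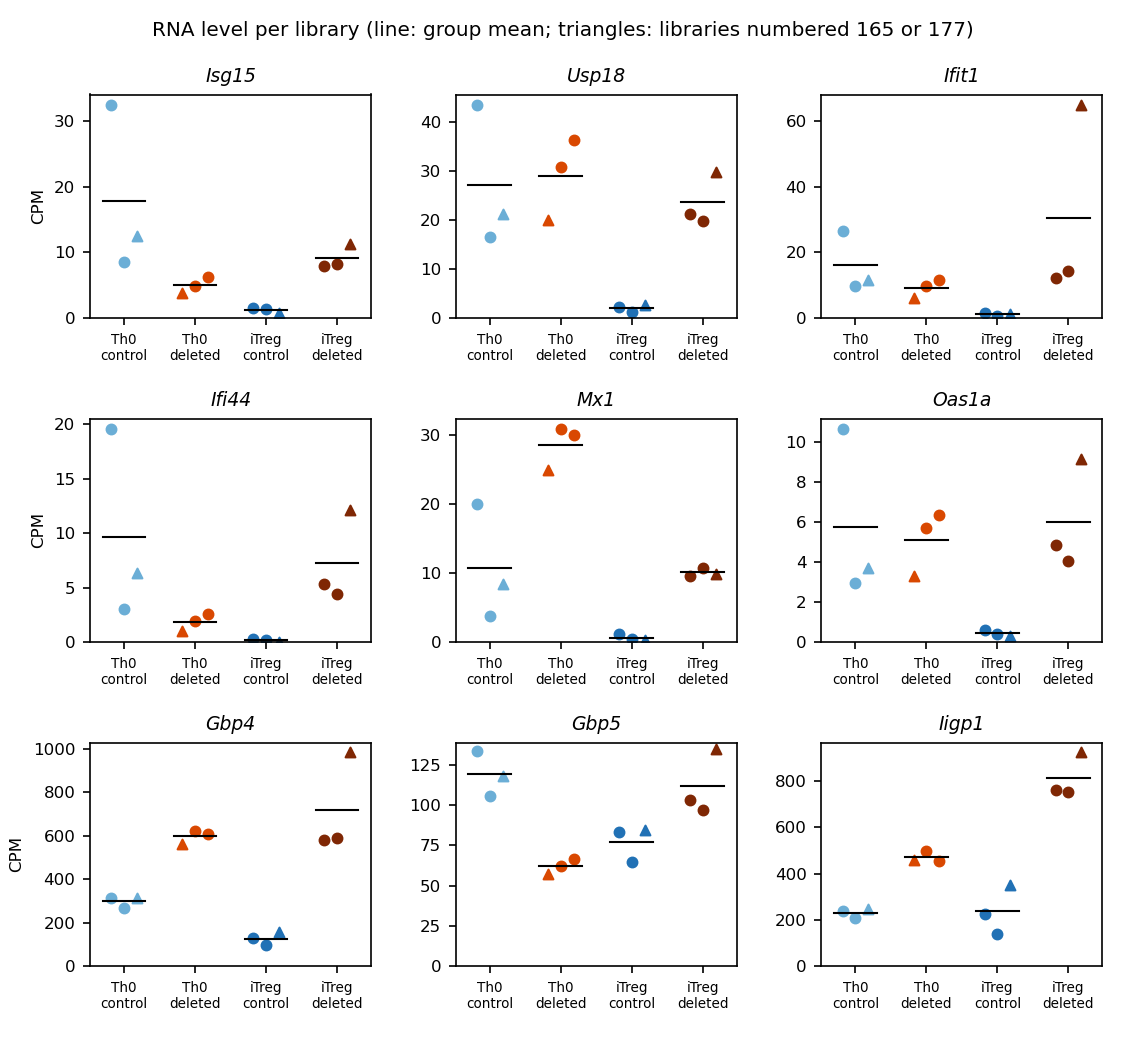
CPM of 9 members in each of the 12 RNA libraries, by culture and genotype on the horizontal axis, with a line at the group mean. Triangles mark libraries Ezh2KO.165 and control 177. Every deleted iTreg library is above every control iTreg library in each panel, and Th0 control 173 is the highest Th0 control point in 7 of the 9 panels.

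Library Ezh2KO.165 carried part of the size of these changes but not their direction for most members. It was the highest deleted iTreg library for 25 of 33 type I targets and 9 of 10 Gbp and Irg genes. Without it, 22 type I targets and 8 Gbp and Irg genes rose, and the medians were 1.22 and 0.99. More genes were called over all in that fit, where 2733 of 13025 rose and 3030 fell. With all libraries 1214 of 12845 rose and 933 fell, so the counts of members in the 2 fits are not directly comparable. Without both iTreg Ezh2KO.165 and 177, 19 and 9 rose, and 1 type I target, Ifi35, was lower (log2 change -0.52). Libraries Ezh2KO.150 and Ezh2KO.153 against 154 and 155 were higher for 30 of 33 type I targets (median log2 difference 1.34) and 10 of 10 Gbp and Irg genes (1.02). Ezh2KO.165 against control 177 in iTreg was higher for 33 of 33 and 9 of 10 (1.97 and 1.30), and the same numbers in Th0 gave 1 of 33 and 5 of 10 (-0.73 and -0.07). Single controls mattered more for the number of calls: without iTreg control 155, 12 type I targets rose. With the 6 iTreg libraries fitted alone, 7 type I targets and 3 Gbp and Irg genes rose, at medians of 1.66 and 1.12. Apart from the fit without Ezh2KO.165, calls over all genes are not given for these refits. Their counts of members thus have no background beside them.

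In Th0 cells the same genes gave another picture. Of the 33 type I targets, 0 rose and 2 fell in cells without Ezh2, Mx2 and Isg15, against 8.74% and 3.22% of all tested genes. At an unadjusted p under 0.05, 1 was higher and 10 lower, where 1873 and 1102 of all 12845 genes were. DESeq2 called 0 higher and 5 lower, and over all genes 1498 higher and 861 lower. The median log2 change was -0.62 for type I targets and 0.13 for Gbp and Irg genes, against -0.002 over all genes. Of the 10 Gbp and Irg genes, 2 rose (Gbp4 and Iigp1) and 1 fell (Gbp5). Deleted libraries were all below control libraries for 15 of 33 type I targets, where 26.0% of all genes were, and all above for 1, Mx1, where 33.2% were. For Gbp and Irg genes, 5 were all above and 2 all below.

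Mx2 (chromosome 16, 97536083 to 97560899), the second Mx GTPase, had 9.72, 2.08 and 3.97 CPM in Th0 control 173, 176 and 177 and 0.734, 0.929 and 1.41 CPM in deleted Th0 libraries (here and later in the order Ezh2KO.165, Ezh2KO.174, Ezh2KO.175). The groups did not overlap (log2 change -2.38, SE 0.53, adjusted p = 0.0162). The call was lost without Th0 control 173 or Th0 Ezh2KO.165 or Ezh2KO.174 (0.0519 to 0.0748). Isg15 had 32.5, 8.56 and 12.4 CPM in control and 3.75, 4.87 and 6.22 CPM in deleted Th0 cells, again without overlap (log2 change -1.88, SE 0.47, adjusted p = 0.0292). It was lost without Th0 control 173 or any 1 of the deleted Th0 libraries (0.0620 to 0.117). Mx1, the neighbour of Mx2 on chromosome 16, had 19.97, 3.78 and 8.48 CPM in control and 24.9, 30.9 and 30.1 CPM in deleted cells. Its log2 change of 1.38 was opposite in sign to that of most type I targets and did not pass (adjusted p = 0.145, and 0.0357 without Th0 control 173, where it was 2.19). Usp18 and Ddx58 had values close to 0 with the same sign (0.07, adjusted p = 0.966, and 0.06, adjusted p = 0.956). Usp18 had 43.4, 16.5 and 21.1 CPM in control and 20.05, 30.7 and 36.2 CPM in deleted cells, and Ddx58 104, 71.1 and 83.8 against 79.3, 104 and 93.9 CPM, so both overlapped.

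Gbp5 (chromosome 3, 142496934 to 142522344), which marks damaged bacteria and pathogen vacuoles and promotes inflammasome assembly, fell in Th0 and rose in iTreg. It had 133, 106 and 118 CPM in control and 56.9, 62.1 and 66.5 CPM in deleted Th0 cells, a log2 change of -0.98 (SE 0.16, adjusted p = 0.00359). This call held in each of the 12 fits that left out 1 library. Gbp4 went the other way at 311, 266 and 314 against 563, 622 and 608 CPM (0.98, SE 0.23, adjusted p = 0.0204), and Iigp1 at 236, 209.9 and 247 against 457, 499.6 and 456 CPM (0.99, SE 0.27, adjusted p = 0.0389). Neither gene overlapped between genotypes. The Gbp4 call was lost without Th0 control 173, 176 or 177 or Th0 Ezh2KO.174 or Ezh2KO.175 (0.0611 to 0.0890), and that of Iigp1 in 9 fits, all but those without iTreg control 155 or 177 or iTreg Ezh2KO.165 (0.0506 to 0.139). Irgm1, Irgm2 and Igtp were above control in every deleted Th0 library without passing (0.73, 0.42 and 0.08).

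Th0 control 173 stood above its group mates. It was the highest of its group for 33 of 33 type I targets, and control 176 the lowest for 32. Among deleted Th0 libraries, Ezh2KO.165 was the lowest for 31 of 33 type I targets and 9 of 10 Gbp and Irg genes. The other deleted library of that number was the high one in iTreg. The count of 2 falling type I targets became 0 without Th0 control 173, Th0 Ezh2KO.165 or Th0 Ezh2KO.174 and 1 without Th0 Ezh2KO.175. It became 7 without iTreg Ezh2KO.165, 6 in the fit of Th0 libraries only, and 12 when iTreg Ezh2KO.165 and control 177 were both left out. Falls over all genes in Th0 also went up without iTreg Ezh2KO.165, to 1473 of 13025 from 413 of 12845. For the other refits calls over all genes are not given, so those counts have no background beside them. The count of 2 rising Gbp and Irg genes became 0 without any 1 of Th0 control 173, 176 or 177 or Th0 Ezh2KO.174 or Ezh2KO.175, and 1 without iTreg control 154, iTreg Ezh2KO.153 or Ezh2KO.150, or Th0 Ezh2KO.165. In the fit of Th0 libraries only it was 4, with 3 falling, and the same counts came without both iTreg control 177 and Ezh2KO.165.

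**Figure D3:**
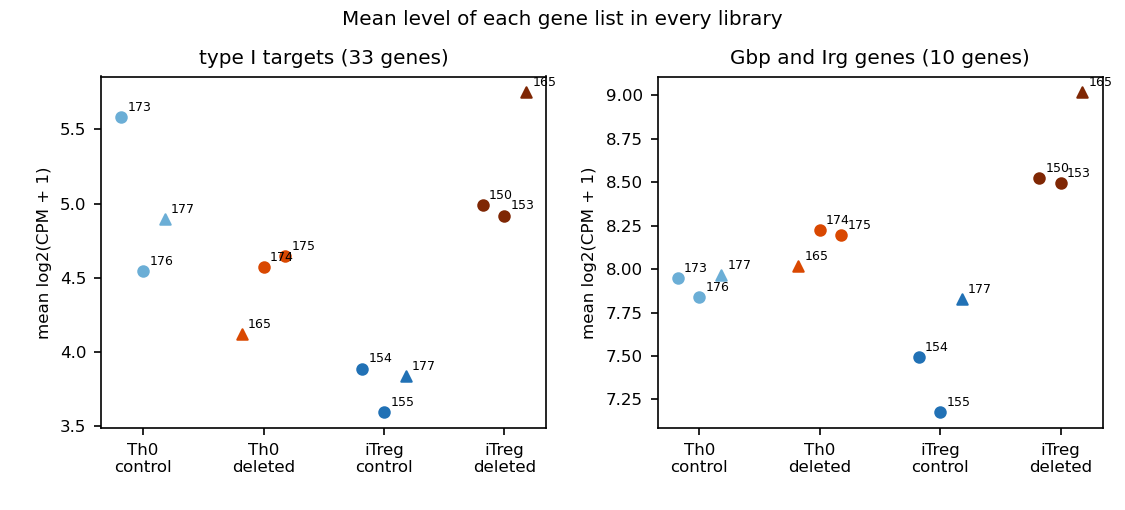
Mean of log2(CPM + 1) over the 33 type I targets (left) and the 10 Gbp and Irg genes (right) in each library, with library numbers beside the points and triangles for Ezh2KO.165 and 177. The deleted iTreg libraries (4.92 to 5.75 for type I targets) are above the control iTreg libraries (3.59 to 3.89), while deleted Th0 libraries (4.12 to 4.65) overlap control Th0 libraries (4.55 to 5.58).

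The difference between the 2 genotype effects was tested as an interaction, iTreg minus Th0. It was higher than 0 for 18 of 33 type I targets and 4 of 10 Gbp and Irg genes and lower for 0 of either (0 at an unadjusted p under 0.05 and 0 in DESeq2), where 1.63% of all genes were higher and 2.86% lower, 4.49% in all. The median was 2.34 for type I targets and 0.93 for Gbp and Irg genes, against 0.01 over all genes. Ifi47 (1.10, SE 0.16, adjusted p = 0.00527) combined its higher iTreg level with Th0 values of 434, 455 and 481 CPM in control and 414, 432 and 437 CPM in deleted cells. Isg15 (4.84, SE 0.70, adjusted p = 0.00527) and Ifi44 (8.04, SE 1.17, adjusted p = 0.00527) had lower values in every deleted Th0 library than in every control Th0 library and the reverse in iTreg. Ifi44 had 19.6, 3.00 and 6.38 CPM in control and 0.966, 1.89 and 2.57 CPM in deleted Th0 cells, and its Th0 change of -2.44 did not pass on its own (adjusted p = 0.0538). Calls held in each leave-one-out fit for 5 of the 18 type I targets, which were Isg15, Ifi44, Usp18, Ifih1 and Ifit1, and for Ifi47 and Gbp5. The total of 22 called members ranged from 7 without iTreg control 155 or Th0 Ezh2KO.174 to 29. It was 14 without iTreg control 154 or Th0 control 176, 11 without Th0 control 177, 9 without Th0 control 173 or Th0 Ezh2KO.175, and 8 without Th0 Ezh2KO.165.

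The interaction can also be read from the cultures. In control cells, iTreg against Th0, 20 of 33 type I targets and 6 of 10 Gbp and Irg genes fell and 0 rose (0 at an unadjusted p under 0.05 and 0 in DESeq2), against 11.5% falling and 19.9% rising over all genes. Usp18 was at 43.4, 16.5 and 21.1 CPM in control Th0 libraries and 2.28, 1.18 and 2.70 CPM in control iTreg libraries (log2 change -3.78, SE 0.45, adjusted p = 0.000461). Isg15 fell by 3.98 (SE 0.53, adjusted p = 0.000826) and Ifi47 by 0.78 (SE 0.11, adjusted p = 0.00116) in the same comparison, and these 3 genes did not overlap between cultures. The 5 OAS, 2 MX and 3 IFIT genes all fell. Without Th0 control 173 the calls of Ifit2 and Oasl2 were lost (0.0510 and 0.0506), as were those of Ifit3 (also without iTreg control 154 or 155; 0.0799 to 0.108) and Oas2 (in 5 fits, without Th0 control 173 or 177, iTreg control 155 or 177, or Th0 Ezh2KO.174; 0.0542 to 0.131). Of the transcription factors and the Parp9 group, 0 of 6 passed, with log2 changes from -1.85 for Irf7 (adjusted p = 0.0594) and -0.46 for Parp9 to 0.42 for Parp14 and 0.68 for Irf9. These role groups were not tested against each other. The 26 falling members were 15 without Th0 control 173 and 17 without Th0 control 177. The median log2 change was -1.79 for type I targets and -0.65 for Gbp and Irg genes, against 0.06 over all genes.

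In cells without Ezh2 the calls went the opposite way, and some role groups had none. From Th0 to iTreg, 12 of 33 type I targets and 3 of 10 Gbp and Irg genes rose and 0 fell, against 16.6% and 8.75% of all genes. At an unadjusted p under 0.05, 1 type I target was lower, where 2210 of all 12845 genes were. DESeq2 called 18 type I targets and 5 Gbp and Irg genes higher and 1 type I target lower. Over all genes it called 2877 higher and 1989 lower. Gbp5 rose from 56.9, 62.1 and 66.5 CPM to 103, 97.1 and 135 CPM (log2 change 0.82, SE 0.16, adjusted p = 0.00748). Herc6 rose from 25.1, 22.03 and 21.2 CPM to 49.9, 45.3 and 76.1 CPM (1.29, SE 0.28, adjusted p = 0.0132, and 0.0531 or 0.0544 without Th0 Ezh2KO.174 or Ezh2KO.175). Parp9 rose from 86.7, 104 and 105 CPM to 157, 149 and 237 CPM (0.85, SE 0.19, adjusted p = 0.0138, and 0.0614 without Th0 Ezh2KO.165). None of the 3 overlapped between cultures. All 3 members of the Parp9 group and 2 of 3 transcription factors rose here. The OAS and MX genes, which all fell in control cells, had 0 of 5 and 0 of 2 called here. Their log2 changes ran from 0.025 to 0.77 for OAS and from -1.53 to 1.21 for MX genes. In the ISG15 system 1 of 3 rose, and the lowest value was -0.33. Mx1 had the lowest value, at -1.53 (adjusted p = 0.0609). Only the Gbp5 call held in each leave-one-out fit: the 15 calls became 2 without any 1 of the 3 deleted Th0 libraries and 9 without iTreg Ezh2KO.165 or Th0 control 177. The 4 comparisons of genotype and culture share libraries and are not independent of each other.

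Scaled by gene length, the 2 lists differed in level. RPKM (CPM per kb of the length given with the RNA counts) had a median over genes of 14.5 for type I targets in control Th0 cells and 6.90 in deleted Th0, 4.76 in control iTreg and 13.3 in deleted iTreg cells. For Irf7 this length, 5388 bases, exceeded its gene interval of 3776, so it may not be that of 1 transcript. Levels between genes are uncertain to that extent. For Gbp and Irg genes the medians were 39.2, 72.0, 45.1 and 111 RPKM in the same order. Igtp had the highest mean level in all 4 groups, from 259 RPKM in control iTreg to 562 RPKM in deleted iTreg cells, followed by Gbp2 in 3 of the 4 groups and by Irgm1 in deleted Th0 cells. The ranges of Gbp2 (144 to 198 RPKM) and Irgm1 (175.5 to 194 RPKM) overlapped in deleted Th0 cells. Bst2 led the type I targets in 3 groups and Ifi35 in control iTreg cells, and Rsad2, Mx2, Ifi44 and Oas2 had the lowest levels, each in 1 group.

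A list of 100 other genes of the pathway held interferons, receptors, kinases, regulators and further interferon targets, of which 98 were found in the RNA tables and 87 tested. In Th0 cells 5 rose and 6 fell without Ezh2 (8.74% and 3.22% of all genes did), with a median log2 change of -0.011. In iTreg cells 27 rose and 5 fell (9.45% and 7.26% of all genes did), with a median of 0.39. Ifnb1 and Ifna1 had no reads in any library and Ifna2 and Ifna4 at most 2 counts. Ifng, the type II interferon of T cells, had 0.285, 0.408 and 0.840 CPM in control and 30.4, 19.7 and 13.5 CPM in deleted Th0 cells, and 0.609, 0.245 and 0.403 CPM against 1.03, 1.07 and 7.58 CPM in iTreg cells. Ifng rose in Th0 (log2 change 5.32, adjusted p = 0.00389) and in iTreg (2.92, adjusted p = 0.0394), and the interaction did not pass (adjusted p = 0.382). The iTreg call of Ifng was lost in 10 fits, all but those without iTreg Ezh2KO.150 or Ezh2KO.153 (0.0505 to 0.140). Over the fits that left out 1 library its iTreg log2 change ranged from 1.31 to 3.34.

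The transcription factor Irf1 rose in deleted iTreg cells (log2 change 1.39, adjusted p = 0.00331) and did not pass in Th0 (0.65, adjusted p = 0.122). The receptor chain Ifngr2 fell in deleted iTreg cells from 42.99, 43.9 and 53.9 CPM to 16.8, 16.9 and 29.0 CPM (-1.16, adjusted p = 0.00436). Ifnar1, Ifnar2 and Ifngr1 did not pass in iTreg (0.20, 0.16 and 0.70) or Th0 (-0.35, -0.35 and -0.02). Ifnar1 and Ifnar2 had values of -0.57 and -0.46 in iTreg without Ezh2KO.165. The listed genes with the smallest p in iTreg were the guanylate-binding protein Gbp11 (3.37), the secreted glycoprotein Lgals3bp (2.74) and the membrane proteins Ly6e (1.15) and Ly6a (2.71). In Th0 they were Irf5 (0.97, adjusted p = 0.00255), Ifng, Phf11b (-1.40, adjusted p = 0.00416) and Tmem173, which encodes the DNA-sensing adaptor STING (-0.53, adjusted p = 0.00485). Irf5, a factor of inflammatory gene induction, fell in iTreg (-0.63, adjusted p = 0.0143, and 0.0533 or 0.0541 without iTreg Ezh2KO.150 or control 154).

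Markers of other cells moved with some groups. In iTreg, summed CPM of 7 dendritic and plasmacytoid dendritic cell markers was 1.43 to 2.01 in control and 8.23 to 10.1 in deleted libraries, with Siglech at 0 to 2 counts and Clec9a at 0 or 1. Of this list Zbtb46 had 12, 7 and 4 counts in control and 107, 102 and 36 in deleted iTreg libraries, Xcr1 26, 21 and 16 against 79, 54 and 25, Flt3 0, 1 and 6 against 12, 12 and 14, Ccr9 5, 2 and 24 against 29, 21 and 140, and Itgax 1, 2 and 0 against 4, 3 and 6. The 5 NK cell markers summed to 3.22 to 11.3 and 14.0 to 43.3 CPM, with Ncr1 and Klra8 at 0 in every iTreg library and most reads from Klrk1, at 280, 132 and 80 counts in control and 972, 853 and 301 in deleted libraries. Klrb1c had 3, 5 and 0 against 37, 30 and 6 counts. The 2 CD8 markers summed to 18.01 to 26.7 and 39.6 to 138 CPM, led by Cd8a in Ezh2KO.150 and Ezh2KO.153 (2946 and 2719 counts) and not in Ezh2KO.165 (387). B cell markers were lower in deleted iTreg libraries (3.73 to 5.57 against 12.4 to 13.3 CPM) and higher in deleted Th0 libraries (93.7 to 218 against 29.7 to 54.4 CPM). In Th0, NK markers summed to 2.04 to 2.52 in control and 6.36 to 6.98 CPM in deleted libraries, dendritic markers to 0.779 to 1.22 and 2.53 to 3.16, myeloid markers to 2.00 to 2.68 and 3.97 to 5.05, and CD8 markers overlapped. Xcr1 led the dendritic list there, at 12, 10 and 12 counts in control and 55, 51 and 34 in deleted libraries. Zbtb46 (4, 5 and 9 against 3, 9 and 13) and Flt3 (4, 5 and 10 against 9, 9 and 17) overlapped. Itgax and Ccr9 had at most 9 counts, and Siglech and Clec9a at most 1. In the myeloid list Fcer1g had 3, 3 and 2 against 36, 37 and 23, and Cd68 41, 29 and 45 against 54, 63 and 57. Myeloid markers overlapped between genotypes in iTreg (6.20 to 27.3 and 4.91 to 11.2 CPM), with Csf1r at 0 or 1 counts. The 4 regulatory T cell markers summed to 3169 to 5062 CPM in control and 616 to 1445 CPM in deleted iTreg libraries, and to 2532 to 2692 and 578 to 936 CPM in Th0. Il2ra had the most reads of the 4 in every library, at 48492 to 100794 counts in control and 5601 to 31342 in deleted iTreg libraries. Ikzf2 had 1150, 1142 and 2911 against 445, 353 and 4821 counts in iTreg, so its highest value was in Ezh2KO.165. Ikzf4 was lower in deleted iTreg libraries and overlapped in Th0. Foxp3 and Ikzf2 were lower in every deleted Th0 library. Cd4 itself was lower in every deleted library (388 to 501 against 543 to 631 CPM in iTreg, and 246 to 281 against 462 to 509 CPM in Th0). The sum of the 6 T cell markers overlapped in iTreg and was lower in deleted Th0 libraries (1329 to 1571 against 1826 to 1908 CPM). Of these, Cd247 was not lower in Th0, at 6239, 6841 and 6213 counts in control and 6718, 7779 and 7918 in deleted libraries. The part of these markers in the changes of interferon-stimulated genes was not tested.

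H3K27me3 over the members in Th0 cells ranged around the middle of all intervals, with none among the highest. Density, given as CPM per kb of the gene interval, was measured for 40 members. Gbp4, Igtp and Ifi47 had too few reads to test. Of their intervals, 99.8%, 99.2% and 100% lie under those of Gbp8 and Gbp9, Irgm2, and Olfr56. How reads in overlapping intervals were counted is not given, and the part of this overlap in the low counts was not tested. In control cells 0 of 40 members were above the 90th percentile of all intervals (2.20 CPM per kb) and 11 were above the median (0.919), with percentiles from 5.26 to 81.8 and a median percentile of 41.6. Neither input nor spike-in was used here, so a value is a share of the counted reads of a library and not an amount of the mark.

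Oas1a had the highest control density, at 1.68 and 1.64 CPM per kb in control 33 and 7 against 1.13 and 1.07 in Ezh2KO.10 and Ezh2KO.9. It was the 1 member that fell (log2 change -0.59, SE 0.23, adjusted p = 0.0498). Oasl2 was also below control in both deleted libraries (0.991 and 0.975 against 1.28 and 1.30) without passing (-0.39, adjusted p = 0.170). Iigp1 (0.996 and 1.27 against 0.826 and 1.4) and Rtp4 (0.752 and 1.51 against 0.692 and 0.939) had the next densities, and their groups overlapped (-0.04, adjusted p = 0.928, and -0.49, adjusted p = 0.283).

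The members with the smallest p had low control densities. Irf9 rose from 0.292 and 0.349 to 0.912 and 0.793 CPM per kb (log2 change 1.41, SE 0.32, adjusted p = 0.00425), Dtx3l from 0.526 and 0.388 to 1.01 and 1.06 (1.18, SE 0.27, adjusted p = 0.00438), and Ddx58 from 0.551 and 0.368 to 0.850 and 0.887 (0.92, SE 0.24, adjusted p = 0.00836). None of these overlapped between genotypes. By role, 3 of 3 transcription factors, 3 of 3 genes of the Parp9 group, 4 of 4 sensors and 1 of 3 genes of the ISG15 system rose. Of the 3 IFIT, 2 MX, 5 OAS and 10 remaining type I genes 0 rose, and the role groups were not tested against each other. In all, 11 of 33 type I targets rose and 1 fell and 1 of 7 Gbp and Irg genes, Irgm2, rose, where 32.2% of all 20376 tested intervals rose and 20.6% fell, 52.9% in all. Type I shares thus lay close to the background for rises. Of the other interferon pathway genes, 43 of 84 tested rose and 10 fell (median 0.73). Both deleted libraries were above both control libraries for 25 members and below for 2, against 48.1% and 31.6% of all intervals.

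**Figure D4:**
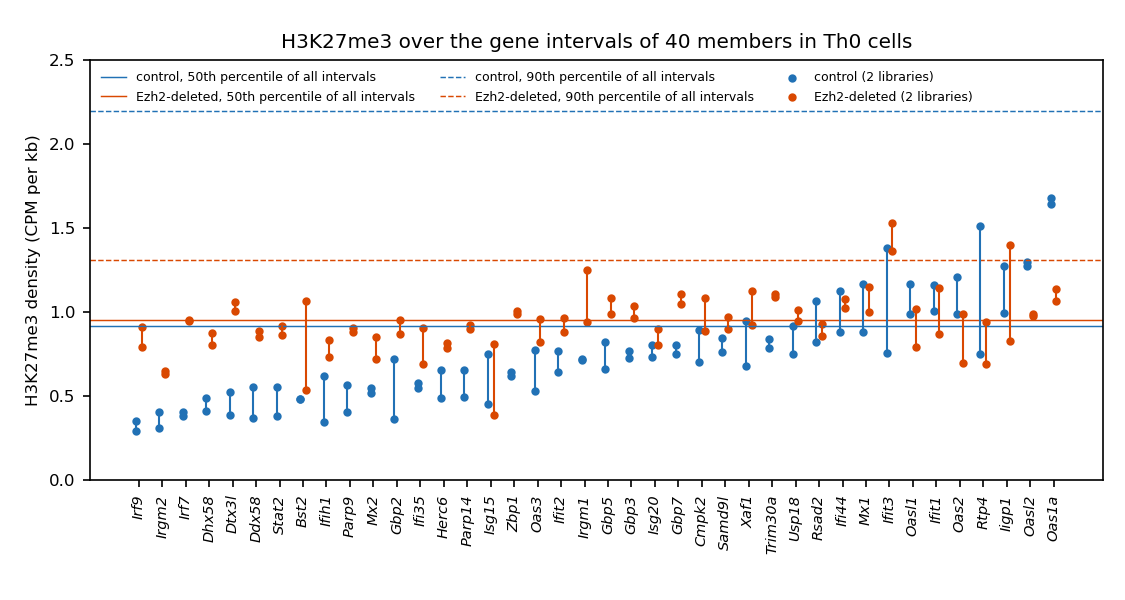
H3K27me3 density in CPM per kb of the gene interval for 40 members in Th0 cells, ordered by mean control density, with the 2 control libraries in blue and the 2 Ezh2-deleted libraries in orange joined by lines. Horizontal lines give the 50th and 90th percentiles of all intervals in each genotype. No member reaches the control 90th percentile of 2.20, and the deleted values of most members lie near the deleted median of 0.952.

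Counts of calls depended on scaling, and the sign of the list medians did not. Library size scaling gave a median log2 change of 0.44 for type I targets and 0.48 for Gbp and Irg genes against 0.21 over all intervals. TMM scaling moved the median of all intervals to -0.02 and those of the lists to 0.20 and 0.26, with 7 members rising and 3 falling in place of 12 and 1, and with 4956 intervals rising and 5699 falling over all in place of 6570 and 4205. Relative to the median of all intervals, the lists lay 0.23 to 0.28 above it under both. Scaling shifts the log2 changes of all intervals by nearly the same amount, so this offset could hardly differ between the 2 scalings. Spread among intervals narrowed with deletion: the 10th and 90th percentiles were 0.367 and 2.20 CPM per kb in control and 0.759 and 1.31 in deleted cells. With 4 libraries, leaving out 1 leaves a lone library that is assumed to vary like the other genotype. In such fits 0 of 40 members were called without Ezh2KO.10 or without Ezh2KO.9, and 20 rose and 3 fell without control 33. Genotypes did not overlap for any of the 13 called members, so leaving out 1 library could not change the sign of their changes. The changes ranged over the 4 fits from 1.29 to 1.55 for Irf9, 1.22 to 1.30 for Irf7, 0.97 to 1.41 for Dtx3l and -0.63 to -0.55 for Oas1a.

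Set side by side with RNA, the 11 members above the median control density had a median of 3.32 RPKM in control Th0 cells and the 29 below it 22.1 RPKM. Their median log2 RNA changes in iTreg cells were 3.38 and 1.09, with 9 of 11 and 16 of 29 called higher, where 9.45% of all tested genes were. The mark was measured in Th0 and the RNA change in iTreg, so these values come from separate libraries, and no test was made of this difference. The 11 include Ifi44, Oasl1, Rsad2, Oas1a and Mx1, each with 32 counts or fewer in every control iTreg library. The size of their changes thus rests on few control reads. Values for all genes split by density are not given. With regard to promoter letters, 15 of 18 members with an ISRE core rose in iTreg (median log2 change 1.39), against 6 of 14 without one (1.23). No test was made of this either.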

How the data were processed

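The authors deposited raw read counts per gene for 12 RNA libraries and raw read counts per gene interval for 4 H3K27me3 libraries. Per the submitters' processing notes, the tools included Trimmomatic 0.30, TopHat2 2.0.6 (RNA), Bowtie2 2.1.0 (ChIP) and featureCounts 1.4.2, on mm10. How reads in overlapping or near-identical genes were counted, and whether strand was used, is not given in the sources used here, so Gbp, Oas1, Irg and other overlapping members are uncertain to that extent.

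RNA counts of all 12 libraries were fitted together as 4 groups in edgeR 4.0.16 (R 4.3.3) with TMM scaling, filterByExpr at a minimum count of 10, and the robust quasi-likelihood F test, over 12845 genes. H3K27me3 counts were fitted likewise with library size scaling over 20376 intervals. P-values were adjusted by Benjamini-Hochberg over all features, with a threshold of 0.05. CPM is the count scaled to the total counted reads of a library, and RPKM uses the length given with the RNA counts. Depth was 21910114 to 28443427 RNA reads. The script was tested on simulated data. Promoter letters came from RefSeq GRCm38.p6 windows.

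The members, lists and tests were chosen with earlier results of these data known. By rule, values per library were given for the 8 type I and 4 Gbp and Irg members of smallest p in iTreg, the 3 of smallest p in each other contrast, the 4 of highest control H3K27me3 density, and members going against the majority. Of other pathway genes, Ifnar1, Ifnar2, Ifngr1, Ifngr2, Ezh2, Ifng, Irf1 and the 4 of smallest p per genotype contrast were named. Alternatives were DESeq2 1.42.0, other scaling, no filter, single cultures, and leaving out libraries. Some other members and values were named after they were seen. One gene that this rule names is not reported here.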

Additional observations from a re-analysis of the deposited data

Results flagged for a closer look

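For 22 members the genotype effect differed between cultures by the interaction term, iTreg minus Th0, on the log2 scale (edgeR, adjusted p under 0.05). The values were 4.84 for Isg15, 8.04 for Ifi44, 3.45 for Usp18, 2.34 for Ifih1, 5.49 for Ifit1, 4.12 for Mx2, 1.94 for Trim30a, 3.98 for Oas1a and 1.31 for Parp9. They were 5.02 for Ifit3, 6.02 for Rsad2, 2.34 for Isg20, 3.63 for Rtp4, 2.07 for Oas3, 2.04 for Bst2, 2.24 for Ifit2, 2.24 for Xaf1 and 4.31 for Oasl1. Among Gbp and Irg genes they were 1.10 for Ifi47, 1.52 for Gbp5, 1.53 for Gbp4 and 1.4 for Gbp2. Isg15 and Gbp5 had calls of opposite sign in the 2 cultures, falling in Th0 and rising in iTreg. Without single libraries the Th0 call of Isg15 was lost in 4 of 12 fits (adjusted p = 0.0620 to 0.117) and the iTreg call of Gbp5 in 10 of 12 (0.0527 to 0.158). Adjusted p ran from 0.00527 (Isg15, Ifi44 and Ifi47) to 0.0466 (Oasl1), and for all 22 genes the genotype effect was higher in iTreg than in Th0. The calls of Mx2 (0.0502 to 0.0507 in 2 fits) and Oas1a (0.0576 to 0.0696 in 3 fits) were lost without single libraries, and 13 further calls in 6 to 10 fits each.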

How the results depend on the processing

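No paired analysis was possible because the groups compared share fewer than 2 library numbers (177 or Ezh2KO.165 between cultures, none between genotypes within a culture), and libraries sharing a number were treated as independent. Of the single-gene values computed under an alternative, 1677 kept their direction and side of the threshold, 232 lost the call, 57 gained one and 26 changed sign. Leaving out 1 library each gave these ranges: Th0 type I targets 0 to 1 higher and 0 to 7 lower, Th0 Gbp and Irg genes 0 to 3 higher, iTreg type I targets 12 to 22 higher and 0 to 1 lower. Members differing by interaction were 7 to 29, those by culture in control cells 0 to 3 higher and 15 to 32 lower, by culture in deleted cells 2 to 19 higher and 0 to 1 lower, and by H3K27me3 0 to 20 higher and 0 to 3 lower. In DESeq2, 5 type I targets were lower in Th0, and by culture in deleted cells 23 members were higher and 1 lower. Without both iTreg Ezh2KO.165 and control 177, Th0 had 12 type I targets lower and 4 Gbp and Irg genes higher and 3 lower, iTreg had 1 type I target lower, culture in control cells had 2 higher, and culture in deleted cells had 1 lower. With each culture alone, Th0 had 6 type I targets lower and 4 Gbp and Irg genes higher and 3 lower, and iTreg had 7 type I targets and 3 Gbp and Irg genes higher. Without both Ezh2KO.165 libraries, culture in control cells had 3 higher and culture in deleted cells 7 higher. For H3K27me3, TMM scaling gave 7 higher and 3 lower, intervals overlapping no other gave 7 higher, and no filter gave 0 lower. Calls over all features are not set beside each of these counts. Values that changed sign were also given as ranges over the fits that left out 1 library. In iTreg these were Irf9 -0.38 to 0.68, Cmpk2 -0.041 to 1.27, Samd9l -0.026 to 0.73, Gbp3 -0.15 to 0.34, Ifnar1 -0.57 to 0.51 and Ifnar2 -0.46 to 0.43. In Th0 they were Usp18 -0.18 to 0.59, Ddx58 -0.056 to 0.22 and Ifngr1 -0.086 to 0.046. Without both libraries numbered Ezh2KO.165, Irf9 was -0.38, Cmpk2 -0.040, Samd9l -0.027, Gbp3 -0.023, Ifnar1 -0.57 and Ifnar2 -0.46 in iTreg and Ifngr1 0.054 in Th0. Without iTreg Ezh2KO.165 and control 177, Irf9 was -0.069, Cmpk2 -0.10, Ifnar1 -0.27 and Ifnar2 -0.19 in iTreg. The cause was not tested. Fits without 1 library of an H3K27me3 group assume that the lone library varies like the other group. Low counts limit Ifi44, Oasl1 and Rsad2 in control iTreg cells. Counts there were also low for Oas1a (16, 10 and 7), Mx1 (32, 10 and 8), Mx2 (23, 14 and 18) and Oas2 (55, 32 and 6).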
